A study of Mus musculus with 12 samples.

Results

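The genes described here are a set of 10 from the bone morphogenetic protein (BMP) pathway: the ligands Bmp2, Bmp3, Bmp4, Bmp5, Bmp6, Bmp7 and Gdf10, the secreted antagonists Nog and Grem1, and Id1, which is neither ligand nor antagonist but a target gene of the pathway. The rule that picks them uses no measured value: they are the rows of the deposited count table that carry these symbols. All 10 were found among its 23358 rows, and all 10 passed the filter on low counts that left 16190 genes for testing. The RNA came from frontal bone taken with the nasal bone, the coronal suture and the frontonasal suture of mouse pups at postnatal day 3. There were 12 samples in 4 groups of 3: wild type C57BL/6, C57BL/6 carrying FGFR2C342Y/+, wild type BALB/c, and BALB/c carrying FGFR2C342Y/+. The mutants have 1 Fgfr2 copy with the C342Y change, which models Crouzon syndrome, a disorder of premature suture closure, and they keep a normal copy of the gene. The study asked how this mutation acts in the frontal bone of inbred strains. Nothing in the labels says that the samples of a group came from separate litters or animals, so p-values measure the spread between these samples, which may in part be technical.

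BMPs are secreted proteins that bind pairs of type I and type II receptors at the cell surface. The receptors phosphorylate SMAD1, SMAD5 and SMAD9, which enter the nucleus with SMAD4 and switch on genes such as the Id family, Smad6 and Smad7. Noggin and gremlin bind BMPs outside the cell and keep them from their receptors. In skull bone and sutures BMP2, BMP4 and BMP7 are known as inducers of bone formation, whereas BMP3 and its close relative GDF10 (also called BMP3B) are known for opposing that activity.

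Counts assigned to genes summed to between 27181658 and 46521546 per sample, and every member had at least 36 counts in every sample. The run names in the descriptions put the C57BL/6 samples on 1 flow cell and the BALB/c samples on another, which means that flow cell and strain cannot be told apart. Osteoblast markers (8 of 8 listed genes in the table) were abundant throughout, at a summed 62200 to 142000 CPM (counts scaled to a common library size, corrected for composition), the lowest being C57BL/6 wild type replicate 1. Summed markers of other cell types differed between the groups and within them: cartilage markers reached 4580 to 6730 CPM in wild type C57BL/6 and 237 to 2580 in the C57BL/6 mutants. Epithelial markers stood at 125 to 308 CPM in wild type C57BL/6, at 3.73 to 69.9 in its mutants and at 2.78 to 6.18 in all BALB/c samples. BALB/c mutant replicate 16 had more muscle marker RNA (399 CPM, against 1.41 to 73 in all samples but the BALB/c mutants) and glial marker RNA (422 CPM). Y-linked transcripts, a sign of male tissue, were high in all 3 wild type C57BL/6 samples and in 1 of 3 samples of each of the other groups. Their summed level was 145 to 185 CPM there and at most 1.36 CPM in the other samples. Sex was therefore uneven between the groups. It cannot be fully separated from genotype in C57BL/6, from strain in the wild types or from the interaction. In bulk tissue, fewer cells of a type and less RNA per cell cannot be told apart.

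Per length of transcript, Id1 was the most abundant member in all 4 groups and Grem1 the least. RPKM, the authors' deposited read count scaled to gene length and library size, was used only to compare genes within a sample or group and to form ratios within a sample. In wild type C57BL/6, Id1 stood at 48.7 ± 0.902 RPKM (SD, n = 3), Gdf10 at 26.8 ± 4.72, Bmp2 at 18.8 ± 4.47 and Bmp3 at 11.3 ± 0.929. Below them came Bmp7 at 8.24 RPKM, Bmp4 at 7.88, Bmp5 at 6.12, Nog at 4.61 and Bmp6 at 3.96, each with a range that overlapped that of its neighbour. Grem1 closed the order at 1.18 ± 0.397 RPKM, below the lowest Bmp6 sample. The order Id1, Gdf10, Bmp2, Bmp3 held in each of the other 3 groups too. Gdf10 and Bmp2 overlapped in both C57BL/6 groups and were separate in both BALB/c groups, where Gdf10 reached 27.7 ± 2.02 RPKM in wild type and 29.5 ± 3.82 in mutants against 16.9 ± 2.71 and 16.9 ± 2.04 for Bmp2. Among the antagonists Nog was the more abundant in every sample, by 2.08 to 15 times per length. Bmp4, Bmp5 and Bmp6 overlap other annotated transcripts, antisense in each case and for Bmp5 also on the same strand, and the strand setting of the counting is not given in the sources used here, so reads from the partners cannot be told apart. The antisense neighbour of Bmp4 with a row in the count table, Gm15217, had 0 to 4 counts per sample.

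**Figure D1:**
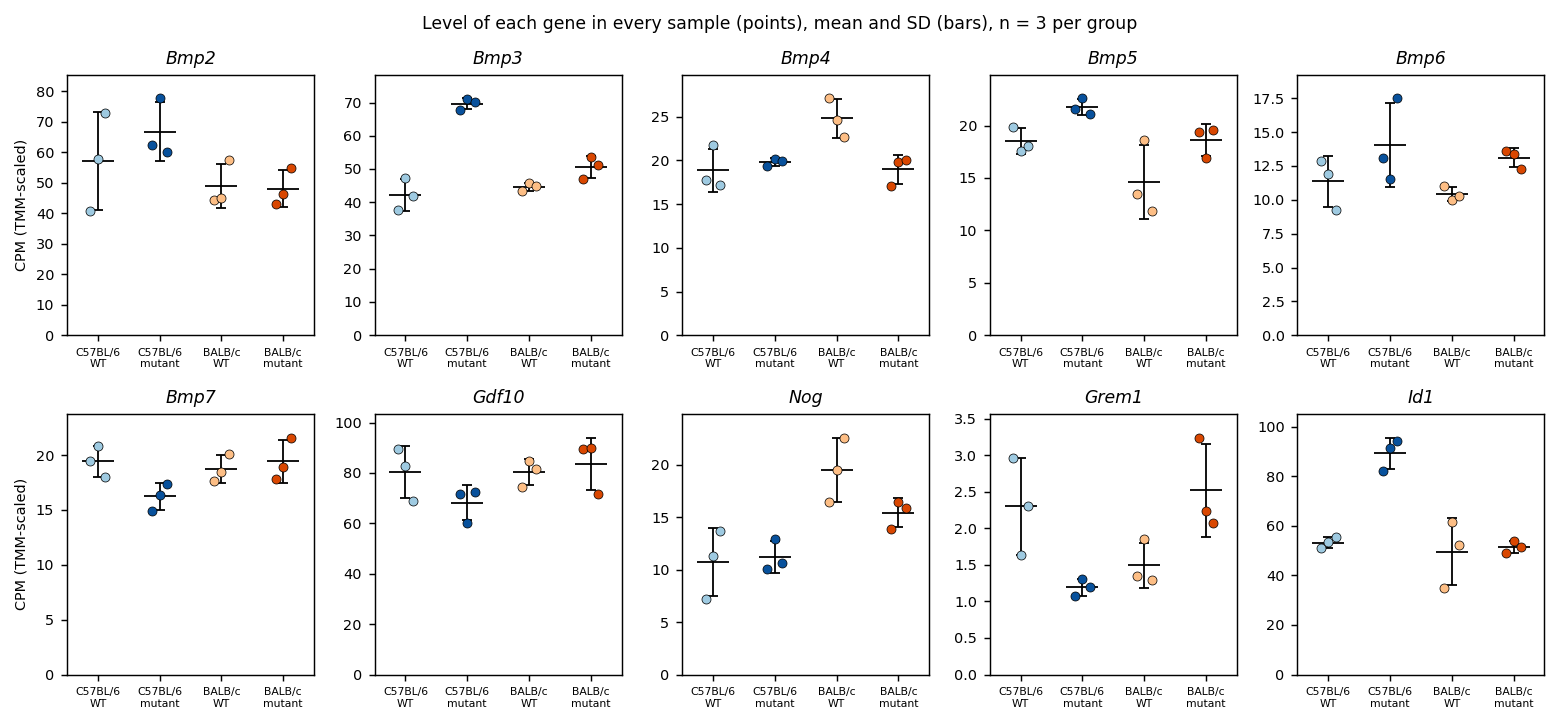
TMM-scaled CPM (y axis, from 0) of the 10 genes in each of the 12 samples (points), by group (x axis), with horizontal bars for the mean and vertical bars for the SD, n = 3. Bmp3 and Id1 are set apart from the other 3 groups in the C57BL/6 mutants (67.8 to 71.0 and 82.2 to 94.3 CPM), Bmp4 and Nog reach their highest means in wild type BALB/c, and Grem1 stays under 3.3 CPM everywhere.

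In C57BL/6, the mutation came with more Bmp3 RNA, more Id1 RNA and less Grem1 RNA, while the other ligands and Nog did not pass the test. Of the 10 members, 2 were higher and 1 was lower, against 23.9% of all tested genes called in either direction (11.3% higher and 12.6% lower), so the share among the members was near that background. The median log2 fold change was 0.15 over the members and -0.004 over all tested genes. Ranges of mutant and wild type samples did not overlap for 5 members (Bmp3, Bmp5, Bmp7, Grem1 and Id1), against 41.6% of all tested genes.

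Bmp3 (chromosome 5, 98854439 to 98880960 in mm10), the BMP known as a brake on bone formation, had 37.6, 47.2 and 41.8 CPM in wild type C57BL/6 and 67.8, 71.0 and 70.1 CPM in the mutants. Every mutant sample lay above every wild type sample. The log2 fold change was 0.72 ± 0.0769 (SE), or 1.65-fold, with an adjusted p of 0.000239 (edgeR's quasi-likelihood test, Benjamini-Hochberg over all tested genes). The call held without any 1 of the 6 C57BL/6 samples, with adjusted p between 7.19e-05 and 0.0015.

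Id1 (chromosome 2, 152736274 to 152737410), an inhibitor of basic helix-loop-helix factors and a direct target of the SMADs, had 51.0, 53.4 and 55.4 CPM in wild type and 82.2, 91.4 and 94.3 CPM in mutant C57BL/6. The groups did not overlap. Its log2 fold change was 0.75 ± 0.148, or 1.68-fold, with an adjusted p of 0.00544, and the call held without any 1 of the 6 samples (adjusted p 0.00237 to 0.0263). Markers of bone cells moved in the same samples: the summed level of 6 osteoclast markers was 3400 to 4160 CPM in wild type and 7170 to 8000 CPM in mutants, with 6 of 6 higher by the test, and 6 of 8 osteoblast markers were higher too. The summed osteoblast level was 62200 to 110000 CPM in wild type and 117000 to 142000 CPM in mutants. Their part in the Bmp3 and Id1 differences was not tested.

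Grem1 (chromosome 2, 113748675 to 113758648), the gremlin antagonist, was measured at low depth, from 36 to 114 counts per sample. All deposited counts are even, so the number of independent reads behind them may be smaller. Grem1 had 2.96, 1.63 and 2.31 CPM in wild type C57BL/6 and 1.08, 1.31 and 1.19 CPM in the mutants. All 3 mutants were below the lowest wild type sample. The log2 fold change was -0.95 ± 0.28, a level 0.519 times that of wild type, with an adjusted p of 0.0304. This call was fragile: it was lost when any 1 sample other than wild type replicate 2 was left out, with adjusted p of 0.137 without wild type replicate 1, 0.0565 without wild type replicate 3, 0.0572 without mutant replicate 4, 0.0609 without mutant replicate 5 and 0.0863 without mutant replicate 6. It was also lost with Y-linked expression as a covariate (adjusted p 0.0882) and when only the C57BL/6 samples were fitted (0.0697). Red cell, cartilage, epithelial and ciliated markers were lower in the same mutants. By the test 6 of 6 erythroid markers fell, from a summed 205 to 272 CPM to 53.9 to 83.5 CPM. So did 2 of 6 cartilage, 5 of 8 epithelial and 4 of 6 ciliated markers. Their part in the Grem1 difference was not tested.

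The remaining ligands showed smaller differences in C57BL/6. Bmp7, an inducer of bone, had 19.5, 20.8 and 18 CPM in wild type and 14.9, 16.4 and 17.4 CPM in mutants. Its ranges were separate, and its log2 fold change of -0.26 ± 0.0929 did not pass (adjusted p 0.0615), although it did without wild type replicate 3 (0.0454). Gdf10 had a log2 fold change of -0.24 ± 0.113 (adjusted p 0.142; 0.0493 without wild type replicate 3), with overlapping ranges of 68.9 to 89.4 and 60.3 to 72.5 CPM. Both also passed when counts were scaled to library totals alone, a scaling that shifts the median of all genes in this comparison by -0.20. Bmp5 stood at 17.6 to 19.9 CPM in wild type and at 21.1 to 22.6 CPM in mutants, a log2 difference of 0.23 ± 0.134 (adjusted p 0.216) with no overlap. For Bmp2 (log2 0.23 ± 0.184), Bmp6 (0.30 ± 0.153), Bmp4 (0.07 ± 0.0992) and the antagonist Nog (0.06 ± 0.199) the ranges overlapped, with adjusted p between 0.166 and 0.852. The signs for Bmp4 and Nog turned with scaling to library totals, to -0.12 for both.

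**Figure D2:**
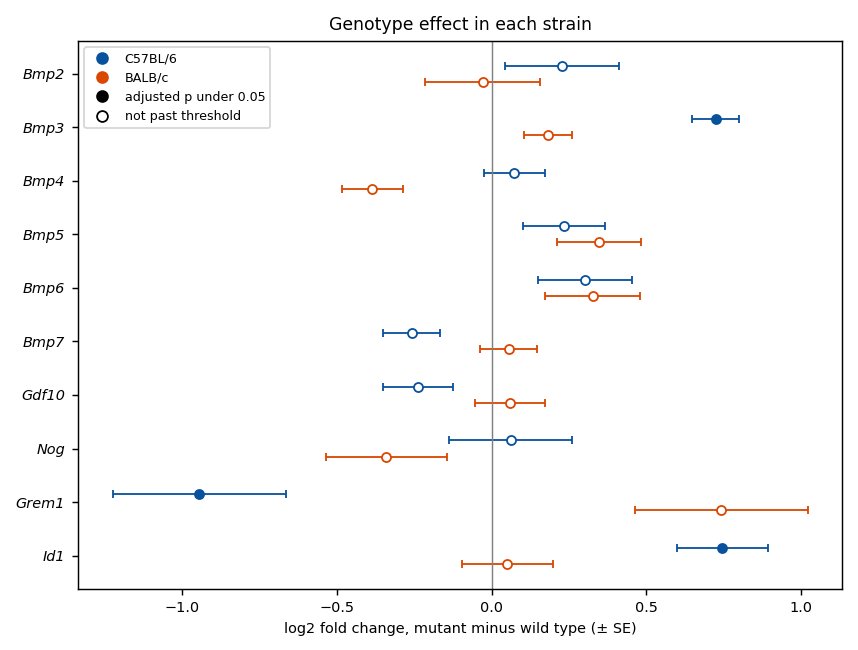
Log2 fold change of mutant against wild type (x axis, 0 means no difference) for each of the 10 genes (y axis) in C57BL/6 (blue) and BALB/c (orange); bars are the SE, filled points have an adjusted p under 0.05. Bmp3, Grem1 and Id1 are filled in C57BL/6, none is filled in BALB/c, and the Grem1 points lie on opposite sides of 0.

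Besides Id1, 11 genes known as BMP targets were followed. In C57BL/6 mutants 5 of the 11 rose (Id3, Smad6, Smad7, Bambi and Dlx5) and 1 fell (Id4), with a median log2 fold change of 0.42 over the 11, and 15 of 54 tested genes of the wider pathway were higher and 15 lower, beside the 11.3% and 12.6% over all tested genes given above. Id3, the closest partner of Id1, had 163, 194 and 209 CPM in wild type and 270, 285 and 279 CPM in mutants. All mutants lay above all wild type samples, at a log2 fold change of 0.56 (adjusted p 0.00509). Smad7, an inhibitory SMAD that feeds back on the pathway, rose from 50.5 ± 7.19 to 69.3 ± 2.2 CPM (log2 0.46, adjusted p 0.00603). Smad6, the other inhibitory SMAD, had a log2 fold change of 0.47 (adjusted p 0.0128, 0.0551 without mutant replicate 6 and 0.0843 when only the C57BL/6 samples were fitted). Dlx5 (0.46, adjusted p 0.0425) and Bambi (0.42, adjusted p 0.0493) passed narrowly. Dlx5 lost its call without mutant replicate 5 (0.0814) or 6 (0.143), and Bambi without wild type replicate 2 (0.0558) or mutant replicate 5 (0.128) or 6 (0.108). Without wild type replicate 1 both passed at lower values, 0.28 for Dlx5 and 0.24 for Bambi. Both were also lost with library totals (Dlx5 0.28, adjusted p 0.0817; Bambi 0.24, 0.103), with the Y-linked covariate (0.0676 and 0.116) and when only the C57BL/6 samples were fitted (0.16 and 0.175). Bambi was lost with median-ratio size factors (0.0501) and no filter on low counts (0.0529) as well, and kept its call in 1 of 6 alternatives. Id3 (0.37), Smad6 (0.29) and Smad7 (0.27) passed with library totals at smaller values. Id4 went the other way, from 32.4, 17.7 and 22.4 CPM to 13.8, 7.32 and 6.2 CPM, a log2 fold change of -1.40 (adjusted p 0.00682, and 0.0539 when only the C57BL/6 samples were fitted). Besides the osteoclast and osteoblast markers, endothelial markers were higher in these mutants, at a summed 487 to 574 CPM against 395 to 466 CPM with 2 of 6 called. Called lower, as Id4 was, were 6 of 6 erythroid, 5 of 8 epithelial, 4 of 6 ciliated and 2 of 6 cartilage markers. The part of none of these lists in the target genes was tested. Dlx5 and Bambi were named after their values were seen.

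**Figure D3:**
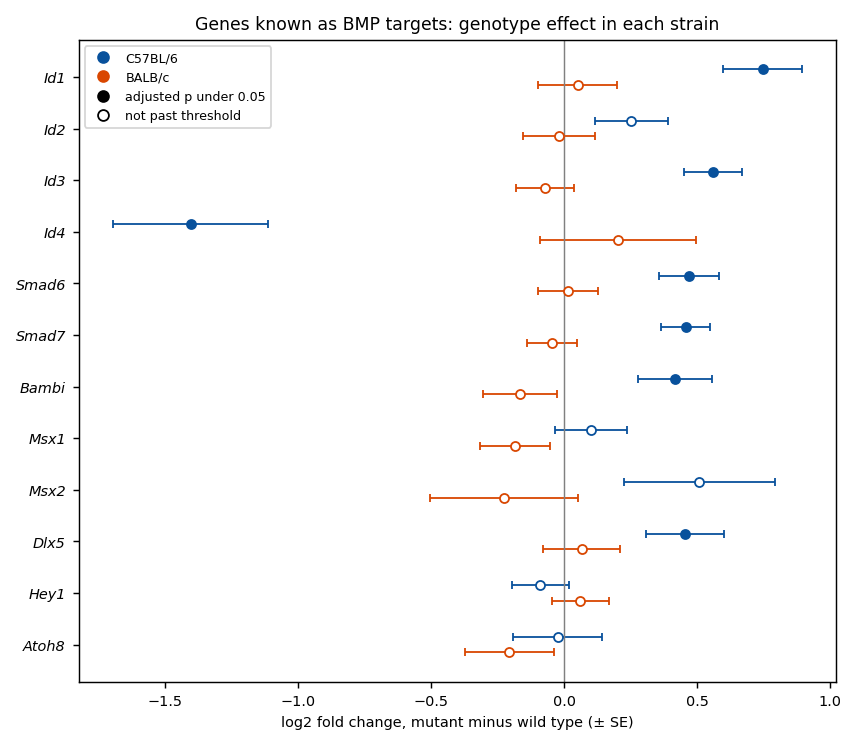
Log2 fold change of mutant against wild type (x axis) for Id1 and 11 other genes known as BMP targets (y axis) in C57BL/6 (blue) and BALB/c (orange), with SE bars; filled points have an adjusted p under 0.05. In C57BL/6, Id1, Id3, Smad6, Smad7, Bambi and Dlx5 are filled to the right of 0 and Id4 to the left, and no BALB/c point is filled.

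The same C57BL/6 comparison touched other steps of the pathway. Of 6 SMADs and their ubiquitin ligases 3 were higher: Smad1 (log2 0.35, adjusted p 0.00589), Smad9 (0.44, 0.0329) and Smurf1 (0.23, 0.0144), the last of which marks SMAD1 for breakdown. Of 5 tested proteases 3 were higher and 1 lower, led by Bmp1 (log2 0.56, adjusted p 0.00169), which despite its name is a procollagen protease that also cleaves the antagonist chordin. Pcsk5 (0.41) and Furin (0.27), convertases that cut BMP precursors, were the other higher ones, and Tll1 (-0.68) was lower. Among 16 other antagonists and secreted BMP regulators 5 were lower, among them Sostdc1 (log2 -0.89, adjusted p 0.0233), Chrdl1 (-0.72, 0.000958), Fstl1 (-0.39) and Twsg1 (-0.22). Nbl1 (0.49, adjusted p 0.00472) and Bmper (0.26) were higher. Among 10 receptors and co-receptors Acvr1 (0.29) was higher and 4 were lower, the BMP co-receptors Rgma (-1.10) and Rgmb (-0.55), the type II receptor Acvr2a (-0.34) and, with the largest change, the type I receptor Bmpr1b (log2 -1.99, adjusted p 0.00617). Bmpr1b was at 4.76 to 7.69 CPM in wild type and at 0.873 to 2.17 CPM in the mutants. Of 6 other ligands 4 were lower, Gdf5, a joint and cartilage ligand (log2 -2.61, adjusted p 0.0277), Gdf6 (-1.04), Gdf7 (-2.48) and Bmp8b (-1.59), and 1 was higher, Bmp8a (0.52, 0.0182). Bmper, Fstl1, Twsg1, Acvr1, Gdf7 and Bmp8b were named after their values were seen, and were not refitted with samples left out. With 1 sample left out several calls were lost while the log2 fold change kept its direction: Tll1 (largest adjusted p 0.0679) stayed between -0.70 and -0.67, Sostdc1 (0.0721) between -0.93 and -0.85, Smurf1 (0.0645) between 0.19 and 0.27, Furin (0.0537) between 0.23 and 0.32, Smad9 (0.115) between 0.32 and 0.53 and Gdf6 (0.15) between -1.21 and -0.85. These losses came without mutant replicate 6 for all 6 genes, without mutant replicate 5 for Smad9, Tll1, Sostdc1 and Gdf6, without wild type replicate 1 for the same 4, and without wild type replicate 2 for Tll1, Sostdc1 and Gdf6. Tll1 was also lost without wild type replicate 3 (0.0509). Bmp8a was lost without mutant replicate 5 (0.51, adjusted p 0.0517). Acvr2a did not pass without wild type replicate 1 (-0.18, adjusted p 0.202), mutant replicate 5 (-0.32, 0.11) or mutant replicate 6 (-0.34, 0.109). Gdf5 ranged from -4.68 without mutant replicate 4 to -2.09 without mutant replicate 6, and was lost without wild type replicate 1 (0.0679) or 3 (0.0501) or mutant replicate 5 (0.0851) or 6 (0.0616). With library totals Smad1 (0.16, adjusted p 0.0748), Smad9 (0.25, 0.0841), Smurf1 (0.04, 0.525), Furin (0.08, 0.255) and Bmp8a (0.34, 0.0537) did not pass, while Bmp1 (0.37), Nbl1 (0.30) and Pcsk5 (0.22) did at smaller values. With the Y-linked covariate Bmp8a (adjusted p 0.0632), Gdf6 (0.13), Sostdc1 (0.0947), Smad9 (0.0934) and Tll1 (0.0907) did not pass. When only the C57BL/6 samples were fitted Gdf5 (0.106), Gdf6 (0.0773), Acvr2a (0.0943), Smad9 (0.105), Smurf1 (0.0894), Furin (0.0851) and Bmp8a (0.0762) did not, and with no filter on low counts Gdf6 (0.0533) did not. Cartilage, epithelial, ciliated and erythroid marker RNA was lower in the same mutants, as given above. Ciliated markers were at a summed 19.1 to 22.1 CPM, against 35.3 to 41.6 CPM in wild type. The part of these markers in the Bmpr1b and Gdf5 differences was not tested. The 54 genes were tested in the same fit as the members, and 5 more on the list (Bmp10, Cer1, Gdf2, Hfe2 and Tll2) did not pass the filter on low counts.

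In BALB/c, 0 of 10 members passed edgeR's test for an effect of the mutation, against 0.136% of all tested genes (22 genes). At an unadjusted p under 0.05 there were 4 members (Bmp3, Bmp4, Bmp5 and Grem1), against 11.7% of all tested genes (1901 genes), and DESeq2 called 1, Bmp4, against 2.02% of the genes it tested. The ranges were separate for 4 members (Bmp3, Bmp4, Bmp6 and Grem1), that is 4 of 10 against 20.0% of all tested genes. Of the 54 other pathway genes 0 passed edgeR's test, 4 had an unadjusted p under 0.05, a share below the 11.7% over all genes, and DESeq2 called 1, the antagonist Chrdl1 (log2 -0.42 ± 0.109, adjusted p 0.00977). Bone marker RNA differed little here, with osteoclast markers at a summed 4080 to 4860 CPM in wild type and 4250 to 4860 CPM in mutants.

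Bmp4 (chromosome 14, 46383520 to 46390599) had 27.1, 24.6 and 22.7 CPM in wild type BALB/c and 17.1, 19.8 and 20.0 CPM in the mutants. The lowest wild type sample was above the highest mutant. The log2 fold change was -0.39 ± 0.0992, with an adjusted p of 0.153 in edgeR's test and of 0.0464 in DESeq2. Grem1 had 1.35, 1.85 and 1.29 CPM in wild type and 3.24, 2.24 and 2.07 CPM in mutants, also without overlap but in the opposite order to C57BL/6. Its log2 fold change of 0.74 ± 0.279 did not pass (adjusted p 0.328). Erythroid markers were at a summed 229 to 343 CPM in wild type and 446 to 543 CPM in mutants, with 2 of 6 called higher. Between the wild types the Grem1 estimate was lower in BALB/c while 4 of 6 erythroid markers were called higher. The highest Grem1 sample, mutant replicate 16, also had the most muscle and glial marker RNA. The part of these markers was not tested.

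Bmp3 had 43.3, 45.7 and 44.9 CPM in wild type BALB/c and 47.1, 53.7 and 51.1 CPM in the mutants. The mutants were again all higher, but the log2 difference was 0.18 ± 0.077 (adjusted p 0.383). Bmp5 (log2 0.35 ± 0.135, adjusted p 0.345) passed only without wild type replicate 14 (0.56, adjusted p 0.0431), and that sample, at 18.6 CPM, lay among the mutants at 16.9 to 19.6. Bmp6 was at 10.4 ± 0.493 CPM in wild type and 13.1 ± 0.717 CPM in mutants, with separate ranges. Its log2 difference was 0.33 ± 0.154 (adjusted p 0.445), close in size to the 0.30 seen in C57BL/6. The C57BL/6 value ranged from 0.11 to 0.427 with 1 sample left out. Id1 had 35.1, 61.6 and 52.1 CPM in wild type and 49.0, 53.7 and 51.6 CPM in mutants. The mutant samples lay inside the wide wild type range, at a log2 difference of 0.05 ± 0.148. Bmp2, Bmp7 and Gdf10 differed by at most 0.06 on the log2 scale, and Nog by -0.34 ± 0.196, all with overlapping ranges.

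Whether the mutation acted differently in the strains was tested directly, as the BALB/c effect minus the C57BL/6 effect. Of the 10 members 2 passed, Bmp3 and Grem1, in opposite directions, against 10% of all tested genes (5.46% with a higher and 4.58% with a lower effect in BALB/c). For Bmp3 the effect in BALB/c was smaller by 0.54 on the log2 scale (-0.54 ± 0.109, adjusted p 0.0133), and the call held with each of the 12 samples left out in turn (adjusted p 0.00546 to 0.035). For Grem1 the difference was 1.69 ± 0.395 (adjusted p 0.0246). It was lost without C57BL/6 wild type replicate 1 (adjusted p 0.0558), C57BL/6 mutant replicate 6 (0.0581), BALB/c wild type replicates 13 (0.0563) and 15 (0.0577) or BALB/c mutant replicate 16 (0.0577), and with Y-linked expression as a covariate (0.0559). Erythroid markers, 6 of 6, and 4 of 7 muscle markers were higher in the same contrast, 5 of 6 osteoclast and 4 of 8 osteoblast markers were lower, and their part in the Grem1 and Bmp3 differences was not tested.

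Id1 and Bmp4 missed the threshold for a strain difference by little. The Id1 difference was -0.70 ± 0.209 (adjusted p 0.0549), which became 0.00334 without BALB/c wild type replicate 13, the sample with 35.1 CPM, 0.0298 without C57BL/6 mutant replicate 4 and 0.0106 in DESeq2. The Bmp4 difference was -0.46 ± 0.14 (adjusted p 0.0584), 0.0211 without C57BL/6 wild type replicate 2, 0.0497 without C57BL/6 mutant replicate 4 and 0.0337 in DESeq2. DESeq2 thus called 4 of 10 members here, against 16.8% of the genes it tested. For the other 6 members the adjusted p lay between 0.136 (Bmp7) and 0.959 (Bmp6), and Bmp7 passed with library totals (0.55, adjusted p 0.0347), a scaling that shifted the median of all genes in this contrast by 0.23. Of the 54 other pathway genes 9 passed in edgeR and 16 in DESeq2, beside the 10% and 16.8% over the genes each tested. The effect in BALB/c was higher for Bmpr1b (2.62, adjusted p 0.0199), Id4 (1.61, 0.0345) and Sostdc1 (1.27, 0.0426). It was lower for the targets Id3 (-0.63, adjusted p 0.0292) and Smad7 (-0.50, 0.0357), the proteases Bmp1 (-0.62, 0.0129) and Pcsk5 (-0.49, 0.0259), the antagonist Nbl1 (-0.46, 0.0497) and Smurf1 (-0.29, 0.0427). With 1 sample left out, Bmp1 kept its call in 12 of 12 fits and Bmpr1b in 10, the exceptions being C57BL/6 mutant replicate 6 (adjusted p 0.0529) and BALB/c wild type replicate 13 (0.0503). Id3 and Pcsk5 kept theirs in 6 fits, Id4 and Sostdc1 in 4, Smad7 and Nbl1 in 3, and Smurf1 in 3, with largest adjusted p of 0.0674 for Id3 without BALB/c mutant replicate 17 and of 0.0869 for Smad7 without C57BL/6 mutant replicate 6 or BALB/c mutant replicate 16. With library totals Id3 (adjusted p 0.0689), Smad7 (0.0898), Pcsk5 (0.0561), Nbl1 (0.184) and Smurf1 (0.501) did not pass. With the Y-linked covariate Bmpr1b (0.0512), Id4 (0.0641), Sostdc1 (0.0927), Smad7 (0.0658), Pcsk5 (0.0526) and Smurf1 (0.0613) did not. Nbl1 was also lost with median-ratio size factors (0.0516), and Nbl1 (0.0573) and Smurf1 (0.0657) with no filter on low counts.

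The RefSeq promoter table (build GRCm38.p6) held a window for 5 of the 10 members, and those of Grem1 and Bmp4 are shown because these passed the test in at least 1 comparison, between genotypes or strains, whereas Bmp5, Bmp6 and Gdf10 passed in none. Each window runs from 250 bases before to 50 bases after the annotated start, 5′ to 3′ on the gene's strand. Capitals mark GGCGCC, a GC-rich SMAD1/5 element that reads alike on both strands.
Grem1, chr2:113758599-113758898, minus strand: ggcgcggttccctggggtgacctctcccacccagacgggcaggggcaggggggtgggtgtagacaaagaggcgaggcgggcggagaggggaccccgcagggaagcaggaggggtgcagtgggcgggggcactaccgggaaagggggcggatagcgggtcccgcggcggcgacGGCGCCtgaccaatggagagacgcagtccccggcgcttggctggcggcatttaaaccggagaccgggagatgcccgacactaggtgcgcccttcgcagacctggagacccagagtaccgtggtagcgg
Bmp4, chr14:46390620-46390919, minus strand: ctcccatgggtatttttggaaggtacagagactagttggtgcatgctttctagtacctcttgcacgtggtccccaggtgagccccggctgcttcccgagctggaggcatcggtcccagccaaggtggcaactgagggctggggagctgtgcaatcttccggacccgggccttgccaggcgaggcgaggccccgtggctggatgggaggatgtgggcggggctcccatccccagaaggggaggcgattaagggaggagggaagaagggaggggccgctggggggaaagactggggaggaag
The Grem1 window holds 1 GGCGCC, whose first base is at -78 from the start, and the Bmp4 window holds none. Of all 32851 windows of this length 11.9% hold it. The windows contain 28 and 12 CG dinucleotides, against a median of 7 over all windows. Of the other members with a window, Gdf10 has a GGCGCC at +17, and Bmp5 and Bmp6 have none. The match describes the letters only.

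Between wild type strains, Bmp4 and Nog were higher in BALB/c, a ligand and an antagonist together. Of the 10 members 2 passed, both higher, against 48.5% of all tested genes called (22.8% higher and 25.6% lower), so the members were called at a lower share than the background. Ranges were separate for the same 2 members, against 57.5% of all tested genes. Bmp4 had 17.7, 21.7 and 17.2 CPM in wild type C57BL/6 against 27.1, 24.6 and 22.7 CPM in wild type BALB/c. The log2 difference was 0.40 ± 0.0994, or 1.31-fold (adjusted p 0.00663). Nog (chromosome 11, 89300638 to 89302559), the noggin antagonist, had 7.22, 11.3 and 13.7 CPM in C57BL/6 and 16.5, 19.5 and 22.6 CPM in BALB/c. All BALB/c samples were above all C57BL/6 samples, at 0.86 ± 0.199 on the log2 scale or 1.82-fold (adjusted p 0.00398). Both calls held without any 1 of the 6 samples, with adjusted p of at most 0.0333 for Bmp4 and 0.0202 for Nog.

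The other members did not pass in this comparison. Bmp5 had a log2 difference of -0.34 ± 0.136 (adjusted p 0.0583), which passed without BALB/c wild type replicate 14 (0.00154), in DESeq2 (0.0435), with library totals (0.0314) and with the Y-linked covariate (0.044). Grem1 stood at -0.62 ± 0.279 (adjusted p 0.0868) and passed without C57BL/6 wild type replicate 2 (0.0367). Bmp2, Bmp3, Bmp6, Bmp7, Gdf10 and Id1 had log2 differences between -0.22 and 0.08, with adjusted p from 0.351 to 0.993. Of the 54 other pathway genes 16 were higher and 17 lower in wild type BALB/c. Over all tested genes the shares were the 22.8% and 25.6% given above. Among the targets the homeobox genes Msx1 (log2 1.21, adjusted p 4.13e-05) and Msx2 (1.19, 0.00502), both known from sutures, and Bambi (0.81, 0.000788) were higher and Id4 (-1.34, 0.00302) was lower. Among the antagonists Sost, the sclerostin gene of osteocytes (1.11, 0.000967), was higher, and Sostdc1 (-1.41) and Crim1 (-0.52) were lower. The secreted BMP regulator Kcp (0.95) was higher. The type II receptor Bmpr2 was lower, from 12.1 ± 0.673 to 5.90 ± 0.51 CPM (log2 -1.03, adjusted p 9.32e-05), as were Bmpr1b (-2.59, 0.000515) and Acvr2a (-0.66), while Acvrl1 (0.69) was higher. Pcsk5 (0.75), Bmp1 (0.48) and Smurf1 (0.31) were higher, and Smad4 (-0.26), Tll1 (-0.58), Smurf2 (-0.17) and the ligand Gdf5 (-1.97, adjusted p 0.0441) were lower. Gdf5 was lost without any 1 of the 6 wild type samples (adjusted p 0.0725 without C57BL/6 replicate 2 or BALB/c replicate 13, to 0.138 without BALB/c replicate 14). Smurf2 was lost without C57BL/6 replicate 2 (0.117) or 3 (0.117) or BALB/c replicate 13 (0.0815) or 15 (0.174), with no filter on low counts (0.0665) and with only the wild types fitted (0.0837). Tll1 was lost without C57BL/6 replicate 2 (0.0602) or 3 (0.0603) or BALB/c replicate 13 (0.0957) and with the Y-linked covariate (0.137). Markers of other cell types differed too in wild type BALB/c: 8 of 8 epithelial, 7 of 7 olfactory, 5 of 6 ciliated and 3 of 6 cartilage markers were lower and 4 of 6 erythroid markers were higher. Cartilage markers summed to 552 to 1660 CPM in wild type BALB/c against 4580 to 6730 CPM in wild type C57BL/6, ciliated markers to 18.8 to 24 against 35.3 to 41.6 CPM, and erythroid markers to 229 to 343 against 205 to 272 CPM. Their part in the Bmp4, Nog and Bmpr1b differences was not tested.

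Between the mutants of the strains, 4 of 10 members passed, 2 higher in BALB/c (Grem1 and Bmp7) and 2 lower (Bmp3 and Id1), against 36.9% of all tested genes called (18% higher and 18.9% lower). Ranges were separate for 7 members, against 50.2% of all tested genes. Bmp3 was at 67.8 to 71.0 CPM in C57BL/6 mutants and 47.1 to 53.7 CPM in BALB/c mutants, a log2 difference of -0.46 ± 0.0764 (adjusted p 0.000678). Id1 was at 82.2 to 94.3 CPM against 49.0 to 53.7 CPM, a log2 difference of -0.80 ± 0.148 (adjusted p 0.00141). Osteoclast markers, at a summed 7170 to 8000 CPM in C57BL/6 mutants, were at 4250 to 4860 CPM in BALB/c mutants (5 of 6 called lower). Osteoblast markers, at 117000 to 142000 CPM, were at 101000 to 109000 CPM (5 of 8 called lower and 1 higher). Erythroid (6 of 6) and muscle (6 of 7) markers were higher and olfactory markers (6 of 7) lower in BALB/c mutants, and the part of these markers was not tested. Grem1 was at 1.08 to 1.31 CPM against 2.07 to 3.24 CPM, 2.1-fold higher in BALB/c (log2 1.07 ± 0.279, adjusted p 0.0105). Erythroid markers (6 of 6 called, a summed 53.9 to 83.5 CPM against 446 to 543 CPM) and muscle markers (6 of 7 called) were higher too, and their part was not tested. The highest Grem1 sample was BALB/c mutant replicate 16, which had the most muscle and glial marker RNA, and without it the log2 difference was 0.86 (adjusted p 0.0487). These 3 calls held without any 1 of the 6 mutant samples.

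Bmp7 passed narrowly among the mutants, with 14.9, 16.4 and 17.4 CPM in C57BL/6 and 17.8, 18.9 and 21.6 CPM in BALB/c (log2 0.26 ± 0.0927, adjusted p 0.0435). The highest C57BL/6 sample and the lowest BALB/c sample lay close together. The call was lost without C57BL/6 mutant replicate 4 (adjusted p 0.126) or 5 (0.0716), without BALB/c mutant replicate 17 (0.066) or 18 (0.174), in DESeq2 (0.0574) and with median-ratio size factors (0.0523). Bmp2 (log2 -0.48 ± 0.185, adjusted p 0.0621), Bmp5 (-0.22, 0.209) and Nog (0.46 ± 0.197, 0.0845) had separate ranges and did not pass, nor did Gdf10 (0.29 ± 0.113, 0.0595), whose ranges overlapped. DESeq2 called Bmp2 (adjusted p 0.0216) and Gdf10 (0.0443), library totals Gdf10 (0.0385) and Nog (0.0195), the fit of the mutants alone Bmp2 (0.0156) and Nog (0.0113), and leaving out BALB/c mutant replicate 18 Gdf10 (0.02). Over all alternatives 3 to 6 members were called. Nog was at 10.1 to 12.9 CPM in C57BL/6 mutants and at 13.9 to 16.5 CPM in BALB/c mutants, in the same order as in the wild types. Of the 54 other pathway genes 9 were higher and 12 lower in BALB/c mutants. These shares were near the 18% and 18.9% over all tested genes. Bmpr2 was again lower (log2 -1.05, adjusted p 7.94e-05), as were the receptors Bmpr1a (-0.33) and Acvr2a (-0.38), the SMADs Smad9 (-0.60, 0.00391), Smad4 (-0.32) and Smad5 (-0.25), the target Smad7 (-0.39), the ligand Bmp8a (-0.59), Smurf2 (-0.19) and Furin (-0.20). The target Msx1 (0.93, 0.000258), the co-receptor Rgma (0.94), the secreted BMP regulator Kcp (0.88), the antagonists Sost (0.79) and Fstl1 (0.61), the ligand Gdf6 (1.34) and Pcsk5 (0.25) were higher. With library totals Acvr2a (-0.26, adjusted p 0.175), Smad5 (-0.14, 0.0758), Smurf2 (-0.08, 0.333) and Furin (-0.08, 0.206) did not pass. Furin and Smurf2 each lost their call without any 1 of the mutant samples other than C57BL/6 replicate 4 (largest adjusted p 0.0914 and 0.149), Pcsk5 without C57BL/6 replicate 4 (0.0994) or BALB/c replicate 17 (0.0958) or 18 (0.066), and Acvr2a without BALB/c replicate 16 (0.0513) or 17 (0.0709). Furin and Smurf2 were also lost with no filter on low counts (0.0537 and 0.0511), and Smurf2 with only the mutants fitted (0.0501).

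The ratio of the RNA of 5 ligands to that of the antagonists Nog and Grem1 set the strains, and with them the flow cells, apart. As a description chosen after the values were seen, the summed RPKM of Bmp2, Bmp4, Bmp5, Bmp6 and Bmp7 was divided by that of Nog and Grem1. The ratio was 8.66, 8.18 and 6.77 in wild type C57BL/6 and 9.51, 8.37 and 9.37 in its mutants. It was 5.32, 4.55 and 4.25 in wild type BALB/c and 5.23, 5.03 and 5.84 in its mutants. Every C57BL/6 sample was above every BALB/c sample, and the genotypes overlapped within both strains. Within each sample Nog made up most of the antagonist sum, and its CPM in each group is given above. The other antagonists were left out, some with more counts, such as Fstl1 at a mean of 718 CPM in wild type C57BL/6. Bmp3 relative to the same 5 ligands was 0.25, 0.269 and 0.233 in wild type C57BL/6, 0.388, 0.362 and 0.387 in its mutants, 0.278, 0.287 and 0.27 in wild type BALB/c, and 0.315, 0.344 and 0.295 in its mutants. On this ratio the C57BL/6 mutants were above all other samples, and the BALB/c mutants were above the BALB/c wild types. No test was made on these ratios, and RNA ratios say nothing of protein.

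**Figure D4:**
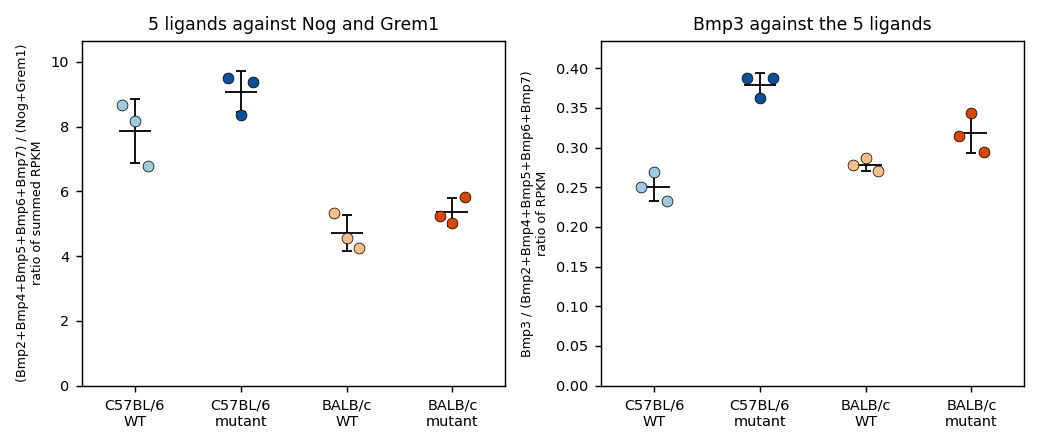
Left, summed RPKM of Bmp2, Bmp4, Bmp5, Bmp6 and Bmp7 divided by that of Nog and Grem1 (y axis, from 0) in the 4 groups (x axis); right, RPKM of Bmp3 divided by that of the same 5 ligands. Points are samples and bars the mean and SD (n = 3): on the left all C57BL/6 samples (6.77 to 9.51) are above all BALB/c samples (4.25 to 5.84), and on the right the C57BL/6 mutants (0.362 to 0.388) are the highest.

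The genes whose level followed a member most closely over the 12 samples were found by the root mean square (RMS) difference between centred log2 CPM profiles, among 12907 genes; the samples share library scaling and group structure, and no test was made. For Bmp3, whose own RMS variation was 0.293, these were Fam102a (0.0763), Atp6v1b2 (0.0803) and Myo1d (0.0821). For Id1 (own variation 0.396) they were Lrp4 (0.134), Dyrk2 (0.134) and Atp6v1a (0.138). For Nog (0.43) they were Nr4a2 (0.129), Fzd1 (0.136) and Cno (0.156), and for Bmp4 (0.193) Mettl21a (0.1), Usp11 (0.112) and E2f5 (0.113). For Bmp7 (0.142) they were Slc25a22 (0.066), Psmd5 (0.0887) and Bub3 (0.092). Grem1 (0.487) had no neighbour as close, the nearest being Itgb2l at 0.24, Abcb10 at 0.249 and Cxcr4 at 0.252. This distance depends on a gene's own variation. The Pearson correlation was 0.876 for Grem1 with Itgb2l and 0.86 for Bmp4 with Mettl21a.

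The authors' deposited table of comparisons gives its own fold changes for all 10 members. In C57BL/6 mutants against wild type, the authors' deposited table lists Bmp3 at a log2 fold change of 0.69 (q 8.51e-07), Grem1 at -0.70 (q 0.0379) and Id1 at 0.55 (q 0.105). The directions are those of the fit above, and Id1 is past a threshold of 0.05 in that fit but not in the authors' deposited table. For wild type C57BL/6 against wild type BALB/c, signs being opposite to those used above, the authors' deposited table lists Nog at -0.81 (q 9.74e-07) and Bmp4 at -0.35 (q 0.0404). In the mutants, the authors' deposited table also has Bmp2 (q 0.0103) and Nog (q 0.0137) under 0.05, which did not pass above, and lists Id1 (q 0.079) above it.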

How the data were processed

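RNA sequencing counts were used from 12 samples in 4 groups, assigned from their labels. The authors deposited raw gene counts, which are whole and all even (0 odd values), and RPKM values per gene; per the submitters' processing notes the tools were bcl2fastq, TopHat2 2.0.6, HTSeq and DESeq2 with build mm10. The annotation, strand setting and filters are not given in the sources used here. The deposited RPKM equals the count divided by coding length and by a library total of which gene counts make up 75.6% to 80.7% in C57BL/6 and 86.4% to 88.0% in BALB/c, so RPKM was compared only between genes of a sample or group, or as ratios formed within a sample, in which the library total cancels. The authors also deposited log2 fold changes with p-values and q-values for 19681 genes. Of the value columns, 0 belonged to no sample.

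Counts were tested with edgeR 4.0.16 (R 4.3.3): filterByExpr (minimum count 10, minimum total 15), TMM scaling, 1 mean per group over all 12 samples, quasi-likelihood F test, Benjamini-Hochberg adjustment over 16190 genes, threshold 0.05. CPM are counts scaled to the TMM library size. Log2 CPM used a prior count of 2. The SE is the log2 fold change divided by the root of F. There were 5 contrasts: genotype in each strain, strain in each genotype, and their interaction. The code was tested on simulated data. Alternatives were DESeq2 1.42.0, median-ratio size factors, library totals, no filter, only the groups compared, a covariate of Y-linked expression (log2 of 4 genes' summed CPM plus 1), and leaving out each sample. Although the members are matched by name alone, they, the gene lists and the alternatives were chosen with earlier results of these data known. All members are named. Other pathway genes are named if called, with a mean of at least 1 CPM, at most 4 per list by fold change; others are said to be named after their values were seen. The values of 1 pathway gene are not reported here. Markers were lists of 6 to 8 genes per cell type. Total counts, 27181658 to 46521546 per sample, limit the precision most for Grem1.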

Additional observations from a re-analysis of the deposited data

Results flagged for a closer look

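The genotype effect on Bmp3 differed between the strains by a test of the difference itself (edgeR interaction term): BALB/c minus C57BL/6 was -0.542 on the log2 scale (adjusted p 0.0133), from 0.72 in C57BL/6 and 0.18 in BALB/c, with mutants above wild types in 3 of 3 samples in both strains. The genotype effect on Grem1 differed by 1.688 on the same scale (adjusted p 0.0246), from -0.95 in C57BL/6 to 0.74 in BALB/c, with the ranges of mutant and wild type separate in both strains and in opposite order. Grem1 rests on 36 to 114 counts per sample, all even, so the independent reads behind them may be fewer.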

How the results depend on the processing

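Of 290 member values recomputed under the alternatives other than leaving out a sample, 258 kept direction and side of the threshold, as did 317 of 360 with a sample left out. Of 11 called member fold changes 0 reversed. Scaling to library totals gave 5 called members for genotype in C57BL/6 (3 in the reported fit), DESeq2 gave 1 in BALB/c (0) and 4 for the interaction (2), and the Y-linked covariate gave 1 for the interaction. Leaving out samples gave 2 to 4 called members in C57BL/6, 0 to 1 in BALB/c and 1 to 4 for the interaction. Genes called for genotype in BALB/c numbered 22, and 316 with DESeq2, 4 with library totals, 4 with the Y-linked covariate, 71 with only the groups compared and 0 to 95 with a sample left out. In C57BL/6 they numbered 3867, 1458 with only the groups compared and 1724 to 4833 with a sample left out. For the interaction they numbered 1626, 2690 with DESeq2 and 624 to 3129 with a sample left out. Higher calls were 47.5% of calls in C57BL/6 and 13.2% with library totals, 68.2% and 75.0% in BALB/c, 47.1% and 31.2% between wild types, 48.8% and 67.8% between mutants, and 54.4% and 90.5% for the interaction. That scaling shifted the median of all genes by -0.20, 0.03, -0.12, 0.12 and 0.23 in the same order.

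Among the members and named pathway genes, signs turned only for log2 differences that were not called. With library totals these were Bmp4 (-0.12) and Nog (-0.116) in C57BL/6, Bmp2 in BALB/c (0.005), Bmp3 between wild types (-0.025), and Bmp4 (0.052) and Bmp6 (0.018) between mutants. With the Y-linked covariate they were Bmp4 in C57BL/6 (-0.007), Bmp6 (0.003) and Gdf10 (0.072) between wild types, and Bmp6 for the interaction (-0.072). Gdf10 between wild types was 0.011 with no filter and 0.011 with only the groups compared. With a sample left out the values ranged from -0.138 to 0.274 for Nog in C57BL/6. In BALB/c they ranged from -0.135 to 0.103 for Bmp2, -0.137 to 0.245 for Id1 and -0.028 to 0.12 for Bmp7. Between wild types the ranges were -0.102 to 0.087 for Gdf10, -0.105 to 0.002 for Bmp7 and -0.29 to 0.093 for Id1. Between mutants they were -0.103 to 0.012 for Bmp4 and -0.222 to 0.095 for Bmp6, and for the interaction -0.098 to 0.222 for Bmp6 and -0.02 to 0.332 for Bmp5. The cause was not tested. No paired analysis was possible because the replicate numbers are not shared between the groups.

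Of the named pathway genes, 12 of 24 for genotype in C57BL/6, 16 of 19 between wild types, 14 of 18 between mutants and 1 of 9 for the interaction kept their call with every sample left out in turn. Under every other alternative it was 9 of 24, 17 of 19, 14 of 18 and 1 of 9. Depth limits Grem1 most, and 3 samples per group limit every estimate.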
